A study of Mus musculus with 29 samples.

Results

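The genes described are 9 receptors for metabolites, lipids and formylated peptides, all members of the G protein-coupled receptor superfamily: Hcar2, Gpr84, Sucnr1, Gpr183, Lpar5, Lpar6, Ptafr, Fpr1 and Fpr2. They were picked by symbol from the 36982 genes of a deposited count table, and the choice was made with readouts of these libraries in view: Hcar2 had been seen to rise with LPS and with depletion, and Lpar5 to fall with LPS. Values of the LPS and depletion comparisons are therefore given as a description without a test, and tests are confined to the effect of an earlier LPS injection and to differences between responses. Of the 9 genes, 8 passed the filter on low counts and entered the fit over 16632 genes. Fpr1 and Fpr2 passed it only through the groups given LPS, and Sucnr1 did not pass.

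The libraries came from brain cells sorted as microglia from male C57BL/6J mice, with 29 libraries in 6 groups and 1 library per labelled sample. Each mouse received 2 intraperitoneal injections, the first at 10 weeks of age and the second 5 weeks later, and each injection was either phosphate-buffered saline (P) or 1 mg/kg LPS of Escherichia coli O111:B4 (L), a bacterial cell wall lipid sensed by Toll-like receptor 4. In mice with a B in the group name, BLZ945 was given by gavage at 169 mg/kg per day for 5 days, starting 1 week after the first injection. BLZ945 inhibits CSF1R, the receptor that microglia need to survive, and the cells studied in these mice are those that refilled the brain afterwards. The remaining mice were gavaged with the cyclodextrin vehicle. Brains were collected from mice aged 15 weeks, 3 h past the second injection. The comparisons ask whether receptor gene levels after LPS differ with an earlier LPS, and whether that holds in microglia that grew back after depletion. The groups were PP (saline, vehicle, saline; n = 5), PBP (saline, BLZ945, saline; n = 5), PL (saline, vehicle, LPS; n = 4), PBL (saline, BLZ945, LPS; n = 5), LL (LPS, vehicle, LPS; n = 5) and LBL (LPS, BLZ945, LPS; n = 5). No group analysed here had LPS first and saline second. A changed response to the second LPS therefore cannot be told apart from a lasting change left by the first. The cells were gated as CD11b high, CD45 intermediate and Ly6C negative, which leaves out most inflammatory monocytes.

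Receptors of this kind let myeloid cells read small molecules outside the cell. Hcar2 binds the ketone body beta-hydroxybutyrate and niacin, Gpr84 medium-chain fatty acids, Sucnr1 succinate, Gpr183 dihydroxylated cholesterol, Lpar5 and Lpar6 lysophosphatidic acid, Ptafr platelet-activating factor, and Fpr1 and Fpr2 peptides that start with formylmethionine, as bacterial and mitochondrial proteins do. Most of them signal through inhibitory, Gq or G12/13 proteins to cell movement and cytokine output, and Gpr84 in particular is known as a gene that microglia switch on during inflammation.

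Total counts per library lay between 5670450 and 12671476 (median 7597841). Levels are given as CPM, read counts scaled to the size of the library after TMM adjustment. They compare groups for 1 gene and are not corrected for gene length. All 8 microglial markers had counts in every group, with a summed level of 58540 to 69280 CPM in PP and 34820 to 48490 CPM in PBL. PP and PL were sorted on a MoFlo Astrios and PBL, LL and LBL on a MoFlo XDP, with PBP on the Astrios except for replicate 5. Sorting day also nearly coincided with the groups. Of neither can an effect be told apart from that of the group in LL against PL, while LBL and PBL share the sorter but not the day. PL replicate 2 stood apart from its group in 3 of these genes, and PBP replicate 5 is the single PBP library from the XDP. Several results that rest on either are also given without it. In bulk libraries, fewer cells that express a gene and less of its RNA per cell cannot be told apart.

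Of the 9 genes, 8 matched an entry in the RefSeq promoter table (build GRCm38.p6, another build than the GRCm39 of the counts), with 9 start sites between them, from 250 bases before to 50 bases after each start. Hcar2 did not match. Gpr84, Ptafr and Lpar5 are shown because they are the genes for which an effect of the earlier LPS was called, lower for the first pair and higher for Lpar5. The sequences run 5′ to 3′ along the gene, and capitals mark the core motif of the myeloid factor PU.1 (GAGGAA, or its reverse complement). They lie at chr15:103310389-103310688 (minus strand) for Gpr84, chr4:132563817-132564116 (plus strand) for Ptafr and chr6:125067670-125067969 (plus strand, the first of 2 starts) for Lpar5.

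Gpr84: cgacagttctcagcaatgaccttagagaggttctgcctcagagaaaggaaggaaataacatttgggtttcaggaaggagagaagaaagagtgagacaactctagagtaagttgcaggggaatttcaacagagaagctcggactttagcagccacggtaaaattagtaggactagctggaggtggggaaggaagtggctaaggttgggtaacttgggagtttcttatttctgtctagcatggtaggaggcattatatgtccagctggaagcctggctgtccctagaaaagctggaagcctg

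Ptafr: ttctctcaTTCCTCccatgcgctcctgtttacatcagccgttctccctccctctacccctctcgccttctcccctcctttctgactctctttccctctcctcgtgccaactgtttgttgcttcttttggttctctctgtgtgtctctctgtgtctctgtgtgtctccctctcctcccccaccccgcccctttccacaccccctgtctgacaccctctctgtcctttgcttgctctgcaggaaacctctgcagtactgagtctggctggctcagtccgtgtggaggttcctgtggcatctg

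Lpar5: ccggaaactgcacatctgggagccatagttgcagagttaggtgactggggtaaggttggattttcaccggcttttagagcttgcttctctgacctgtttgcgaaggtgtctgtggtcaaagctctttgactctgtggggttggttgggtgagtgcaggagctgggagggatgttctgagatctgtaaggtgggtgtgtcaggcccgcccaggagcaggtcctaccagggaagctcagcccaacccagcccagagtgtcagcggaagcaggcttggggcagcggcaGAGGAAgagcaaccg

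A search of both strands for a kappa-B motif (NF-kB), the AP-1 motif (TGANTCA), the cyclic AMP response element core (TGACG) and the PU.1 core (GAGGAA) found the PU.1 core at position -242 from the Ptafr start, on the opposite strand, and at position 36 of the first Lpar5 window, counted from the start. None of the 4 motifs was in the Gpr84 window, the second Lpar5 window or those of Lpar6, Fpr1 and Gpr183. The Fpr2 window held the PU.1 core at position -19 and the Sucnr1 window held both the AP-1 motif and the PU.1 core. For comparison, of 32851 promoters of the same length 28.3% held the PU.1 core, 7.81% AP-1, 20.8% the cyclic AMP core and 8.46% the kappa-B motif. A match or its absence is a description of these letters only.

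The genes differed in how they stood with LPS. Groups did not overlap for 7 of the 8 in PL against PP, where 21.8% of all genes tested did not, for 7 in PBL against PBP (24.1% of all), for all 8 in LL against PP (22.3%) and for 6 in LBL against PBP (17%). Hcar2, Gpr84, Fpr1 and Fpr2 were the higher ones and Lpar5, Lpar6 and Gpr183 the lower ones in PL against PP, and Ptafr overlapped there. The choice of genes bears on these counts, as does the filter, which Fpr1 and Fpr2 passed only through groups given LPS. Nothing is read from these counts.

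Hcar2, the ketone body receptor gene (ENSMUSG00000045502, chromosome 5), was at low levels without LPS and at high levels with it. It was at 16.9, 15.9, 14.2, 11.6 and 12.9 CPM in the 5 PP libraries and at 722, 431, 537 and 655 CPM in the 4 PL libraries. In the depleted mice it was at 55.2, 41.3, 25.9, 23.7 and 32.3 CPM in PBP and at 1849, 1262, 1674, 1200.1 and 879 CPM in PBL. Every LPS library therefore lay above every saline library, and every PBP library above every PP library. After an earlier LPS it was at 537, 415, 476, 336 and 601 CPM in LL and at 1171, 778, 1155, 1067 and 1165 CPM in LBL. The order of the group means was PP, PBP, LL, PL, LBL and PBL. In it LL overlapped PL and LBL overlapped PBL, whereas the other neighbours in that order did not overlap.

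The Hcar2 level was 41.1-fold higher in PL than in PP (log2 fold change 5.36, SE 0.25) and 38.4-fold higher in PBL than in PBP (5.26, SE 0.24). These values chose the gene and carry no test. Measured against the same saline groups, and so sharing their libraries with those values, the log2 difference was 5.05 (SE 0.25) in LL against PP and 4.90 (SE 0.24) in LBL against PBP. Depleted groups were above their non-depleted counterparts at each pair of injections, by 2.50-fold in PBP against PP (log2 1.32, SE 0.23), 2.34-fold in PBL against PL (1.23, SE 0.22) and 2.26-fold in LBL against LL (1.17, SE 0.20). Within 1 sorting day the log2 CPM of LBL was above that of LL by 0.78 on day 1 and by 1.42 on day 2, where 1 of the groups had a single library each time, and PL was 5.36 above PP on day 5. Hcar2 was the 1 gene of the 8 whose groups did not overlap in PBP against PP, where 2.49% of all genes did not, and in PBL against PL, where 16.3% did not. The choice of the gene bears on that count.

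Markers of border-associated macrophages, which CSF1R inhibition can also deplete, moved with the depletion comparisons. Their summed level over 6 genes, all with counts in every group, was 39.0 to 90.1 CPM in PP against 21.4 to 32.7 CPM in PBP, 69.5 to 114.6 against 11.5 to 25.6 CPM in PL and PBL, and 40.4 to 71.3 against 6.89 to 17.9 CPM in LL and LBL. Their part in the Hcar2 difference was not tested.

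The response of Hcar2 to a first LPS, on the log2 scale, differed between depleted and non-depleted mice by -0.10 (95% interval -0.73 to 0.54, adjusted p = 0.923). The effect of the earlier LPS on Hcar2 was log2 -0.31 in LL against PL (95% interval -0.75 to 0.13, adjusted p = 0.513) and -0.36 in LBL against PBL (-0.78 to 0.05, adjusted p = 0.332), neither past the threshold. Both intervals leave out a change of the size seen for Gpr84 in the same libraries.

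**Figure D1:**
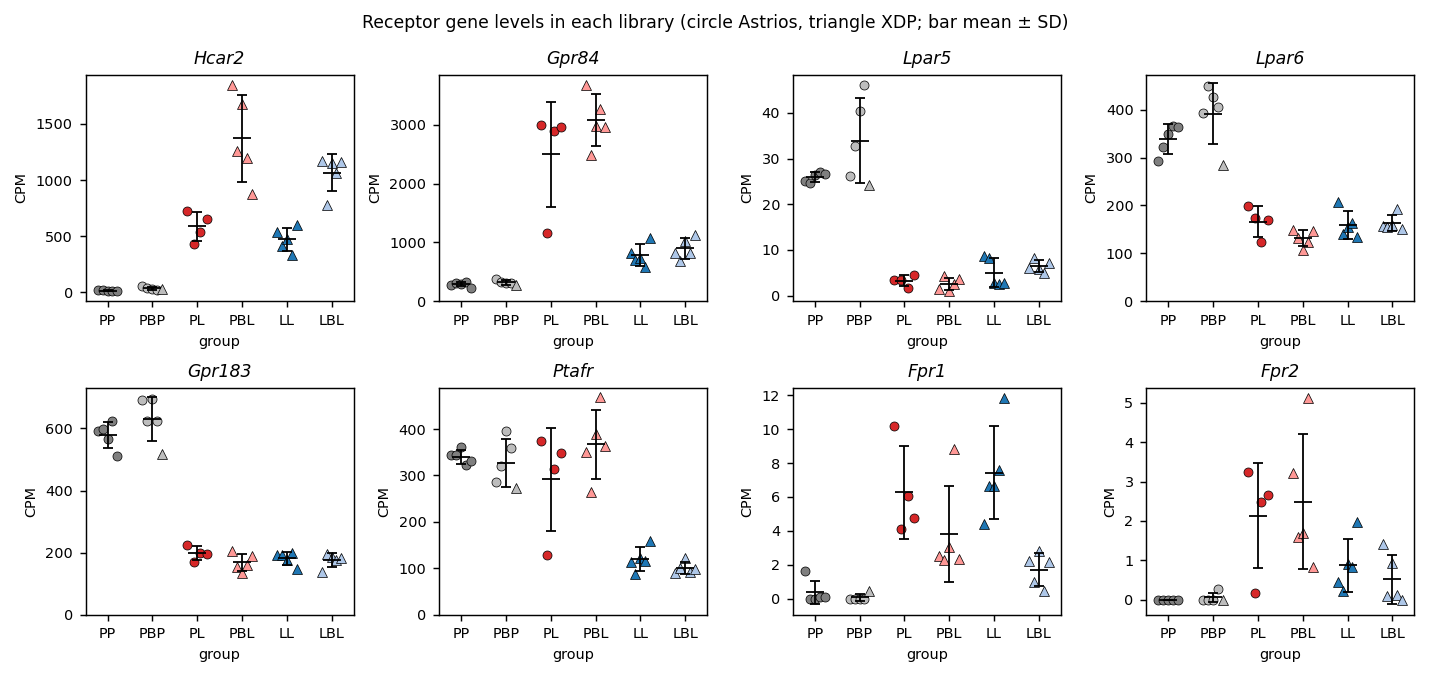
Level of each receptor gene (CPM, vertical axis) in each of the 29 libraries, by group; circles were sorted on the Astrios and triangles on the XDP, and bars give the mean ± SD. Hcar2 is above the saline groups in all 4 LPS groups and higher again with depletion, Gpr84 and Ptafr are lower in LL and LBL than in most PL and all PBL libraries, and Lpar5, Lpar6 and Gpr183 are low in all 4 LPS groups.

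Gpr84, the medium-chain fatty acid receptor gene (ENSMUSG00000063234, chromosome 15), was at 276, 308, 300.1, 319 and 229 CPM in PP and at 384, 324, 307, 309 and 282 CPM in PBP. With a first LPS it was at 2989, 1166, 2887 and 2959 CPM in PL and at 3681, 2493, 2977, 3271 and 2965 CPM in PBL. PL replicate 2 was well below the others of its group. After LPS on both occasions it was at 821, 708, 742, 576 and 1071 CPM in LL and at 827, 682, 1028, 828 and 1132 CPM in LBL. The 10 libraries with LPS on both occasions therefore lay between the saline libraries and the 9 libraries with a first LPS, with no overlap on either side.

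Against saline the Gpr84 level was 8.73-fold higher in PL (log2 3.13, SE 0.21) and 2.73-fold higher in LL (1.45, SE 0.19), both over the same PP libraries. In depleted mice it was 9.58-fold higher in PBL (3.26, SE 0.20) and 2.80-fold higher in LBL (1.49, SE 0.19), both over PBP. The direct comparison, which did not choose the gene although its PL and PBL libraries entered those that did, gave a 3.19-fold lower level in LL than in PL (log2 -1.67, SE 0.20, adjusted p = 6.11e-06) and a 3.42-fold lower level in LBL than in PBL (-1.77, SE 0.19, adjusted p = 2.86e-07). Both fell by edgeR's quasi-likelihood test with Benjamini-Hochberg adjustment. Without PL replicate 2 the difference of LL from PL was -1.91 (adjusted p = 2.02e-10). With the sorter as a term in the fit it was -1.44 and not called (adjusted p = 0.118). That term rests on PBP replicate 5 against the other PBP libraries. Among libraries from the XDP alone, LBL against PBL was -1.77 (adjusted p = 7.43e-08).

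Whether depletion changed these effects was tested directly. The effect of the earlier LPS on Gpr84 differed between depleted and non-depleted mice by log2 -0.10 (95% interval -0.66 to 0.46, adjusted p = 0.895). Its response to a first LPS differed by 0.14 (-0.43 to 0.70, adjusted p = 0.868). Depletion by itself came with differences of 0.16 (SE 0.19) in PBP against PP, 0.30 (SE 0.20) in PBL against PL and 0.20 (SE 0.19) in LBL against LL, and the groups overlapped in each.

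Gpr84 shares 39.5% of its exonic bases with the antisense gene Gm49482 on the opposite strand in the GENCODE M21 annotation. Counts of Gm49482 were 41.2% to 52% of those of Gpr84 in each library, and its log2 level followed that of Gpr84 with r = 0.999 over the 29 libraries. Its difference of LL from PL was -1.80 (SE 0.20, adjusted p = 2.64e-06). The strand setting of the counting is not given in the sources used here, so reads of this pair cannot be told apart.

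Sucnr1, the succinate receptor gene (ENSMUSG00000027762, chromosome 3), had 0 counts in all 29 libraries. At 3 counts over all libraries that allows a level of up to 0.0134 CPM, a limit that covers counting error only. No response of Sucnr1 was detectable at this depth. Of the succinate dehydrogenase genes, whose product removes succinate, Sdhd (log2 -0.60, SE 0.11, adjusted p = 0.000754) and Sdhb (-0.58, SE 0.12, adjusted p = 0.00102) were called lower in PBL against PL. Sdha was called lower there as well (-0.42), where 22.1% of all genes were called. None of these calls held once the sorter was added as a term (adjusted p = 0.99 for Sdhd and 0.957 for Sdhb). Sdhb was also called lower in LBL against LL (-0.41), where 1.21% of all genes were called. That call was lost in 12 of 19 alternatives.

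Gpr183, the oxysterol receptor gene (ENSMUSG00000051212, chromosome 14), was at a like low level in all LPS groups. It was at 592, 599.7, 566, 624 and 512 CPM in PP and at 692, 623, 696, 625 and 519 CPM in PBP. With a first LPS it was at 224, 169.9, 199 and 196 CPM in PL and at 204, 155, 134, 159 and 188 CPM in PBL. After both LPS injections it was at 191, 193, 175, 199 and 147 CPM in LL and at 138, 196, 187, 175 and 184 CPM in LBL. All 19 LPS libraries lay below all 10 saline libraries, and the LPS groups overlapped one another.

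The Gpr183 level was 2.93-fold lower in PL than in PP (log2 -1.55, SE 0.12) and 3.76-fold lower in PBL than in PBP (-1.91, SE 0.11), given without a test. The earlier LPS made a difference of -0.12 (SE 0.12; 95% interval -0.37 to 0.12, adjusted p = 0.668) in LL against PL and of 0.07 (SE 0.11; -0.16 to 0.30, adjusted p = 0.815) in LBL against PBL. These intervals also leave out changes of the size seen for Gpr84. Ubac2, the gene in whose span Gpr183 lies on the opposite strand, shares none of its exonic bases and showed no call in PL against PP (-0.10, SE 0.14, adjusted p = 0.658).

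The enzyme Ch25h, which starts the synthesis of the Gpr183 ligand by hydroxylating cholesterol, moved the other way under LPS. It was at 0.858 ± 0.562 CPM (SD, n = 5) in PP, 46.5 ± 15.6 CPM (n = 4) in PL and 9.38 ± 7.31 CPM (n = 5) in LL. In the depleted mice it was at 1.51 ± 0.917 CPM in PBP, 197 ± 71.9 CPM in PBL and 38.0 ± 11.9 CPM in LBL (n = 5 each). It rose in PL against PP (log2 5.74, SE 0.56, adjusted p = 6.95e-09) and was lower after an earlier LPS, both in LL against PL (-2.30, SE 0.41, adjusted p = 0.00114) and in LBL against PBL (-2.38, SE 0.37, adjusted p = 0.000148). The first of these turned to 4.58 with the sorter in the fit and was not called (adjusted p = 0.728), and the second was called in all 20 alternatives. Depleted mice had more of it in PBL against PL (2.07, SE 0.40, adjusted p = 0.0013) and in LBL against LL (2.00, SE 0.40, adjusted p = 0.00879), and the first of these was lost with the sorter in the fit. Cyp7b1, which completes the ligand, and Hsd3b7, which removes it, did not pass the filter: their group means were at most 0.359 and 1.05 CPM.

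**Figure D2:**
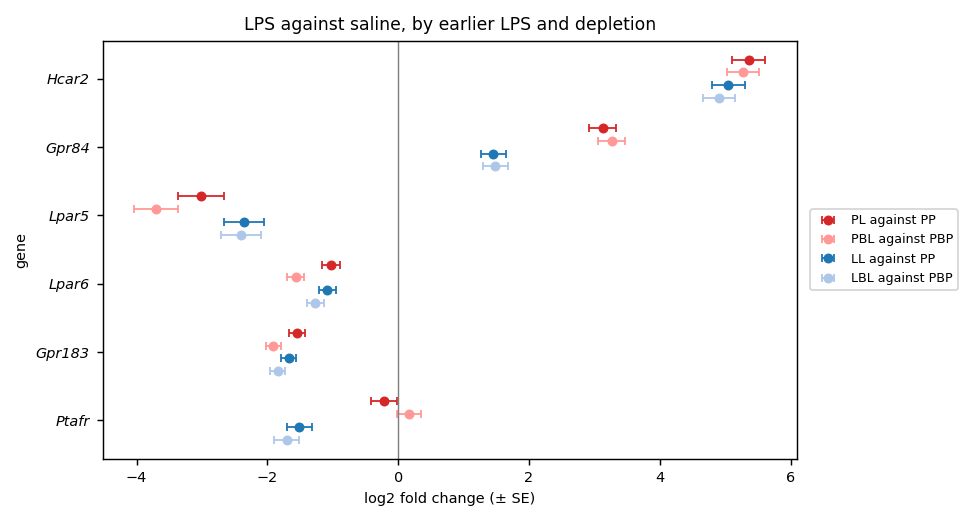
Log2 fold change (horizontal axis) of each gene in the 4 LPS groups against the saline group with the same depletion; points are estimates from the fit over all libraries and bars ± 1 SE. The PL and LL points share the PP libraries and the PBL and LBL points share the PBP libraries. Gpr84 is at 3.13 and 3.26 after a first LPS but at 1.45 and 1.49 after a second, and Ptafr is near 0 after a first LPS and at -1.51 and -1.71 after a second.

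Lpar5 and Lpar6 encode receptors for lysophosphatidic acid, a lipid released in injured tissue, and both were lower with LPS. Lpar5 (ENSMUSG00000067714, chromosome 6) was at 25.03, 24.7, 26.4, 27.1 and 26.7 CPM in PP and at 26.3, 32.8, 40.3, 46.1 and 24.2 CPM in PBP. It was at 3.36, 3.39, 1.66 and 4.5 CPM in PL and at 1.43, 4.26, 1.02, 2.64 and 3.55 CPM in PBL. Every LPS library was below every saline library by a wide margin, and counts in the LPS libraries were few, down to 6 reads. After an earlier LPS it was at 8.61, 8.27, 2.73, 2.49 and 2.85 CPM in LL and at 5.99, 8.17, 5.74, 4.94 and 7.23 CPM in LBL. All 5 LBL libraries were above all 5 PBL libraries, whereas 3 of the LL libraries lay within the PL range.

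The Lpar5 level was 8.08-fold lower in PL than in PP (log2 -3.01, SE 0.35) and 12.99-fold lower in PBL than in PBP (-3.70, SE 0.34), values that chose the gene. After an earlier LPS the remaining level was higher: 2.46-fold in LBL against PBL (log2 1.30, SE 0.34; 95% interval 0.59 to 2.01, adjusted p = 0.0169). That call was lost with the RNA quality number in the fit (1.12, adjusted p = 0.0856), without PBL replicate 3 (1.11, adjusted p = 0.0595) and without LBL replicate 2 (1.19, adjusted p = 0.0598). The RNA quality number was 7.4 to 7.9 in PBL and 7.6 to 8.9 in LBL. The PL and PBL libraries also entered the choice of Lpar5, made on its fall with LPS. A choice on low levels there can raise the differences of LL from PL and of LBL from PBL. In mice without depletion the difference of LL from PL was 0.66 (SE 0.36; -0.08 to 1.39, adjusted p = 0.372) and did not pass the threshold. The effect of the earlier LPS differed between depleted and non-depleted mice by 0.64 (SE 0.50, adjusted p = 0.552), so the pair of comparisons was not shown to differ.

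Lpar6 (ENSMUSG00000033446, chromosome 14) was at 293, 321, 349, 365 and 364 CPM in PP and at 392, 449, 427, 406 and 283 CPM in PBP. With a first LPS it was at 199, 174.5, 123 and 169.5 CPM in PL and at 149, 132, 107, 124 and 147 CPM in PBL. After both it was at 207, 141, 154, 163 and 133 CPM in LL and at 156.5, 154, 158, 193 and 152 CPM in LBL. LPS and saline libraries did not overlap, and PBP replicate 5 was the lowest of the saline libraries.

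The Lpar6 level was 2.04-fold lower in PL than in PP (log2 -1.03, SE 0.14) and 2.97-fold lower in PBL than in PBP (-1.57, SE 0.13). The difference between these responses was -0.54 (SE 0.19, 95% interval -0.93 to -0.16) and did not pass the threshold over all genes (adjusted p = 0.239). Without PBP replicate 5 it was -0.67 and did (adjusted p = 0.0311). Leaving out that library also gave 310 genes called higher and 430 lower over all genes. The earlier LPS made a difference of -0.06 (SE 0.14, adjusted p = 0.881) in LL against PL and 0.30 (SE 0.13, adjusted p = 0.172) in LBL against PBL, where the groups did not overlap. Lpar6 lies within the retinoblastoma gene Rb1 on the opposite strand and shares 7.56% of its exonic bases with it. Rb1 itself fell in PL against PP (-0.88, SE 0.14, adjusted p = 6.47e-06) and followed Lpar6 with r = 0.972 over the 29 libraries, and reads from the shared bases cannot be told apart.

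Ptafr, the platelet-activating factor receptor gene (ENSMUSG00000056529, chromosome 4), differed little between saline and a first LPS and was low after a second. It was at 343, 344, 361, 322 and 330.4 CPM in PP and at 285, 320.5, 396, 359 and 272 CPM in PBP. Levels with a first LPS were 375, 129, 314 and 349 CPM in PL and 350.1, 264, 389, 469.6 and 363 CPM in PBL. Levels after LPS on both occasions were 113, 86.9, 121, 115 and 159 CPM in LL and 89.8, 100.2, 121, 91.3 and 98.1 CPM in LBL. All 10 of these libraries were below every other library except PL replicate 2, which at 129 CPM lay inside the LL range.

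Against PP, the Ptafr level differed by log2 -0.22 (SE 0.19) in PL and by -1.51 (SE 0.19) in LL. Against PBP it differed by 0.17 (SE 0.18) in PBL and by -1.71 (SE 0.19) in LBL. The direct comparisons gave a 2.45-fold lower level in LL than in PL (log2 -1.29, SE 0.19, adjusted p = 6e-05) and a 3.67-fold lower level in LBL than in PBL (-1.88, SE 0.19, adjusted p = 9.42e-08), and both were called. Without PL replicate 2 the first was -1.54 (adjusted p = 1.63e-08). With the sorter in the fit it was -0.97 and not called (adjusted p = 0.278), while LBL against PBL among XDP libraries alone was -1.87 (adjusted p = 1.06e-08). The effect of the earlier LPS differed between depleted and non-depleted mice by -0.58 (SE 0.27, 95% interval -1.14 to -0.03), which was not called over all genes (adjusted p = 0.318). Without PL replicate 2 that difference was -0.33 and was not called.

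**Figure D3:**
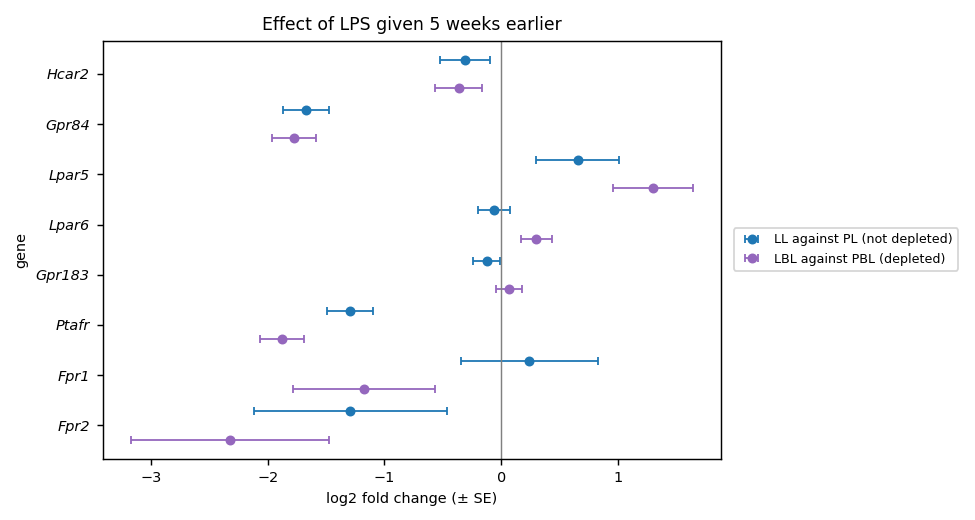
Log2 fold change (horizontal axis, ± 1 SE) of mice given LPS on both occasions against mice given LPS on the second occasion alone, without depletion (LL against PL) and with depletion (LBL against PBL). Gpr84 (-1.67 and -1.77) and Ptafr (-1.29 and -1.88) are below 0 in both, Lpar5 is above 0 (0.66 and 1.30), and Hcar2, Lpar6 and Gpr183 lie within 0.4 of 0.

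Across the genes tested, calls for the earlier LPS came to 2.78% in LL against PL (0.752% higher and 2.03% lower) and 6.74% in LBL against PBL (2.74% higher and 4% lower). Of the 8 receptors tested, 2 were called in LL against PL, both lower, and 3 in LBL against PBL, Lpar5 higher and Gpr84 and Ptafr lower. Fpr1 and Fpr2 are among the 8, although only groups given LPS kept them in the fit, and neither was called. Groups did not overlap for 1 of the 8 in LL against PL, against 5.53% of all genes, and for 4 in LBL against PBL, against 7.11%. For the difference between the effects in depleted and non-depleted mice 0 of 8 were called by edgeR, 1 at an unadjusted p under 0.05. DESeq2 and limma voom also called 0, and the background was 0.0241%. For the difference between the first responses 0 of 8 were called, 2 at an unadjusted p under 0.05, again 0 by DESeq2 and voom, and 0% of all genes were called. That background rests on PBP replicate 5. Without that library 310 genes were called higher and 430 lower over all genes. With all libraries DESeq2 called 13 genes higher and 38 lower. PL and LL were sorted on different instruments and PBL and LBL on different days, so these differences cannot be told apart from those of sorting. Markers of other myeloid cells moved with LBL against PBL. The 7 monocyte markers summed to 25.9 to 68.3 CPM in PBL, all with counts, and to 7.42 to 15.3 CPM in LBL, with Ly6c2 and Chil3 at 0. In PL and LL they summed to 26.4 to 46.9 and 20.4 to 40.5 CPM, with Ly6c2 at 0 in PL. Of the neutrophil markers, 4 granule protein genes summed to 108.5 to 424 CPM in PBL and to at most 3.00 CPM in LBL. Their part in the differences of Gpr84, Ptafr and Lpar5 was not tested.

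Fpr1 and Fpr2 encode the formyl peptide receptors that guide phagocytes to bacteria and damaged cells, and neutrophils carry them at high levels. Fpr1 (ENSMUSG00000045551, chromosome 17) had 13, 0, 0, 1 and 1 reads in PP and 0, 0, 0, 0 and 3 in PBP. With a first LPS there were 82, 23, 51 and 36 reads in PL and 14, 13, 18, 57 and 17 in PBL. After both there were 30, 87, 44, 55 and 108 reads in LL and 14, 10, 18, 4 and 15 in LBL. Reads were thus found in all 19 LPS libraries and in few saline libraries, PP replicate 1 holding 13 of the 15 in PP and PBP replicate 5 all of those in PBP.

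On the CPM scale Fpr1 was at 4.10 to 10.2 CPM in PL, 2.31 to 8.85 CPM in PBL, 4.38 to 11.8 CPM in LL and 0.460 to 2.79 CPM in LBL. The ratio of PL to PP was 17.1 with PP replicate 1 counted (counting interval 10.1 to 31.2) and that of PBL to PBP, where 3 reads stand below the line, 54.1 (18.1 to 266.1). Against the same saline groups the ratio was 20.0 (11.9 to 36.1) for LL and 22.1 (7.22 to 110.2) for LBL. The fitted log2 difference of PL from PP was 4.01 and 6.32 without PP replicate 1, and that of LL from PP was 4.25, but -0.65 with the sorter in the fit. For PBL against PBP it was 5.41, and 7.89 without PBP replicate 5, where no PBP read remained. In LBL against LL the log2 difference was -2.14 (SE 0.60). The groups did not overlap for 2 of the 8 genes there, Fpr1 lower and Hcar2 higher, where 4.35% of all genes did not, and this depletion contrast is described and not tested. The earlier LPS made a difference of 0.24 (SE 0.59) in LL against PL and -1.18 (SE 0.61) in LBL against PBL. Neither was called, and since only groups given LPS kept Fpr1 in the fit, both are given as a description.

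Fpr2 (ENSMUSG00000052270, chromosome 17) had 0 reads in all 5 PP libraries and 3 reads in PBP, all in replicate 4. There were 26, 1, 21 and 20 reads in PL, 18, 9, 10, 33 and 6 in PBL, 3, 3, 6, 6 and 18 in LL, and 9, 1, 6, 1 and 0 in LBL. PL was at least 30.3-fold higher than PP and LL at least 11.1-fold higher, computed at 3 counts over the PP group, and PBL was 34.6 times PBP (counting interval 11.4 to 171.3). LBL was 6.17 times PBP (1.78 to 32.8), and those groups overlapped. The effect of the earlier LPS was log2 -1.29 (SE 0.83) in LL against PL and -2.32 (SE 0.85) in LBL against PBL. Neither was called, and since reads of PL and PBL are what kept Fpr2 in the fit, both are given as a description. Of the 50-base windows of the Fpr2 transcript 31.5% also occur in Fpr1, Fpr3 or Gm5966, so its few reads are uncertain.

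Neutrophil markers were read beside these genes. The summed level of the 13 markers was 417.6 to 761.6 CPM in PBL and 162 to 250.3 CPM in LL, and Csf3r alone was at 202 to 295 CPM on average in every group. In PBL, where Csf3r averaged 271.5 CPM, the rest of the sum was mostly granule protein genes. Of 4 granule protein genes, S100a8, S100a9, Camp and Ngp, singled out after their values were seen, the summed level was 108.5 to 424 CPM in PBL, 0 to 26.7 CPM in LL, 0.249 to 16.2 CPM in PL and at most 7.85 CPM in PP, 6.21 in PBP and 3.00 in LBL. Markers at 0 were Elane and Mpo in PL, Mpo in PBL, Mmp8 and Elane in LL, Camp, Mmp9, Elane and Mpo in LBL, Ltf, Mmp8, Cxcr2 and Elane in PP, and Lcn2, Mmp8, Cxcr2, Elane and Mpo in PBP. Fpr1 averaged 7.43 CPM in LL and 6.28 CPM in PL, groups that overlapped, and 3.81 CPM in PBL. The part of neutrophil RNA in the Fpr1 and Fpr2 counts of PBL was not tested.

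**Figure D4:**
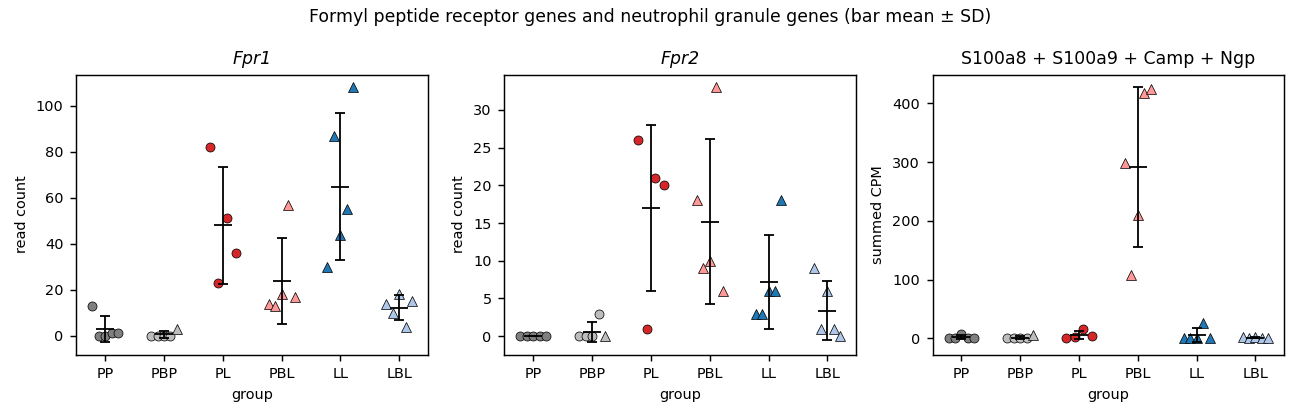
Read counts of Fpr1 and Fpr2 and the summed CPM of 4 neutrophil granule protein genes (vertical axes) in each library by group, with circles for the Astrios, triangles for the XDP and bars for the mean ± SD. Fpr1 reads reach 108 in LL and 57 in PBL, and the granule genes reach 26.7 CPM in LL and 424 CPM in PBL.

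Among the 25 other metabolite and lysophospholipid receptors, 10 could be tested. In PL against PP 2 rose and 3 fell, where 14.2% of all genes rose and 11.9% fell (median log2 change 0.24 over the list and -0.000868 over all genes). Gpr18 (4.75, SE 0.63) and Gpr35 (1.80, SE 0.19, adjusted p = 2.52e-09) rose, while the sphingosine phosphate receptor S1pr1 (-2.08, SE 0.27, adjusted p = 1.31e-07) and the lysophosphatidylserine receptor Gpr34 (-1.27, SE 0.13, adjusted p = 1.61e-09) fell. In PBL against PBP 4 rose and 2 fell, against 21.5% each way over all genes (medians 0.57 and 0.00496). Gpr18 (4.21), the bile acid receptor Gpbar1 (3.28), the lysophosphatidic acid receptor Lpar1 (2.01) and Gpr35 (1.62) were those that rose, and of these Gpbar1 and Lpar1 were not called with the sorter in the fit. The Lpar1 call was lost in 5 of 19 alternatives, among them leaving out single libraries. After an earlier LPS S1pr1 fell in LBL against PBL (-1.13, adjusted p = 0.00666), called in all 20 alternatives. Gpr18 was lower in LBL against PBL (-2.89) and in LL against PL (-1.98, a call lost in 8 of 18 alternatives). Gpbar1 was lower in LBL against PBL (-2.97, a call lost in 10 of 18). Means in PP and PBP were 0.381 and 0.806 CPM for Gpr18, 0.686 and 0.186 CPM for Gpbar1, and 0.393 and 0.801 CPM for Lpar1. Groups given LPS thus kept these genes in the fit, and their values are a description.

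Gpr35 was higher with depletion in each comparison, as Hcar2 was. Its log2 difference was 0.76 (SE 0.18, adjusted p = 0.0426) in PBP against PP, where 0.529% of all genes were called, 0.59 (SE 0.18, adjusted p = 0.0224) in PBL against PL, where 22.1% were, and 0.73 (SE 0.17, adjusted p = 0.026) in LBL against LL, where 1.21% were. Its means were 15.6 ± 3.90 CPM in PP and 26.5 ± 5.27 CPM in PBP (SD, n = 5 each). Its call in PBP against PP was lost in 10 of 19 alternatives, among them voom and leaving out any of 7 single libraries, its call in PBL against PL with the sorter in the fit and without PL replicate 1 or PBL replicate 2, and its call in LBL against LL without LL replicate 3 or 4 or LBL replicate 3. The same list held 2 higher and 1 lower gene in PBL against PL, Lpar1 (3.13, SE 0.86) leading, and no other call in LBL against LL. The Lpar1 call was lost with the sorter in the fit.

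Of the 14 other chemoattractant receptors 9 were in the table and 6 could be tested. Fpr3 and 4 genes of the Fpr-rs series were not analysed here. In PL against PP 4 rose and 1 fell, where 14.2% of all genes rose and 11.9% fell. The same counts held in PBL against PBP, against 21.5% each way over all genes (list medians 0.65 and 0.42). Of the 4 that rose there, C3ar1 (0.26) lost its call in 8 of 19 alternatives. The complement C5a receptor C5ar1 rose by 2.43 (SE 0.11, adjusted p = 6.77e-19) from 343 ± 32.7 CPM (SD, n = 5) in PP to 1843 ± 163 CPM (n = 4) in PL. The chemerin-binding receptor Ccrl2 rose by 2.40 (SE 0.28, adjusted p = 5.67e-08), from 23.9 ± 3.95 to 126 ± 60.1 CPM. The complement receptors C5ar2 (0.79, SE 0.0974, adjusted p = 6.73e-08) and C3ar1 (0.51, SE 0.11, adjusted p = 0.000556) rose too. The leukotriene receptor Cysltr1 fell by 1.00 in PBL against PBP (SE 0.14, adjusted p = 3.9e-07), a call lost with the sorter in the fit. After an earlier LPS Ccrl2 was close to its saline level, at 21.8 ± 5.72 CPM in LL and 27.5 ± 6.42 CPM in LBL (n = 5 each). Ccrl2 fell by 2.52 in LL against PL (SE 0.28, adjusted p = 2.64e-06) and by 2.67 in LBL against PBL (SE 0.27, adjusted p = 1.1e-07). C5ar1 fell by 0.46 in LL against PL (SE 0.11, adjusted p = 0.00942), a call lost with the sorter in the fit and without PL replicate 1. It was not called in LBL against PBL (-0.26, adjusted p = 0.118). Cysltr1 was higher in LBL against PBL by 0.64 (SE 0.14, adjusted p = 0.00274), called in all 20 alternatives.

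Of the 3 proton-sensing receptors in the list, all were tested, and 2 rose in both comparisons of a first LPS with saline (list medians 2.63 and 2.62). Over all genes 14.2% rose in PL against PP and 21.5% in PBL against PBP. Gpr65 rose by 2.63 in PL against PP (SE 0.19, adjusted p = 4.35e-13), from 16.4 ± 3.64 CPM (SD, n = 5) to 102 ± 19.8 CPM (n = 4), and by 2.62 in PBL against PBP (SE 0.18, adjusted p = 9.09e-14). Its level was 76.6 ± 13.8 CPM in LL and 151 ± 35.2 CPM in LBL, higher in the latter by 0.98 (SE 0.17, adjusted p = 0.00169). Gpr132 was higher by 6.14 in PL than in PP (SE 0.70), from 0.0995 ± 0.162 to 8.19 ± 3.77 CPM, and was at 0.349 ± 0.319 CPM in LL. It was lower by 4.39 in LL against PL (SE 0.58) and by 4.48 in LBL against PBL (SE 0.54). Its means were 0.0257 CPM in PBP and 0.774 CPM in LBL, so the groups with a first LPS kept it in the fit. The Gpr132 values are therefore a description, although it counts among the calls. Its call in LL against PL was lost with the sorter in the fit. In PBL against PL Gpr65 was higher by 0.59 (SE 0.18, adjusted p = 0.0206), a call lost with the sorter in the fit and without PL replicate 2 or 4 or PBL replicate 4.

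Of the 19 enzymes that make or remove the ligands 17 could be tested. In PL against PP Ch25h rose and 4 fell, Lpcat1 (-1.22, SE 0.12, adjusted p = 2.2e-10), which makes platelet-activating factor and phosphatidylcholine from their lyso forms, and the lipid phosphatase Plpp1 (-0.83, SE 0.14, adjusted p = 2.4e-05) the furthest. Over all genes 14.2% rose and 11.9% fell in PL against PP. In PBL against PBP 3 rose and 7 fell (list medians -0.10 and -0.31), where 21.5% of all genes went each way. With Ch25h (6.94) rose Enpp2 (1.80, SE 0.42, adjusted p = 0.00128), the autotaxin that makes lysophosphatidic acid, and Pla2g7 (1.57, SE 0.40, adjusted p = 0.00202), the plasma hydrolase of platelet-activating factor, and both of these calls were lost with the sorter in the fit. In PBL against PL 2 were higher, Enpp2 (2.08, SE 0.46, adjusted p = 0.00381) and Ch25h, and 4 lower, where 22.1% of all genes were called. There too the Enpp2 call was lost with the sorter in the fit. Oligodendrocyte markers, a list of 5 genes all with counts in every group, summed to 120.9 to 267.4 CPM in PBL, 54.9 to 101 CPM in PL and 66.9 to 206 CPM in PBP. Oligodendrocytes are known to make Enpp2, and the part of their RNA in the rise of Enpp2, or in that of Lpar1, was not tested.

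The 15 G protein, receptor kinase and arrestin genes were all tested. In PL against PP 2 rose and 5 fell, and in PBL against PBP 3 rose and 5 fell (list medians -0.03 and 0.12), where 14.2% of all genes rose and 11.9% fell in the first and 21.5% each way in the second. The Gq family genes Gna15 (-1.21, SE 0.15, adjusted p = 5.6e-08) and Gna11 (-0.84, SE 0.16, adjusted p = 0.000167) and Gna12 (-0.76, SE 0.15, adjusted p = 0.000219) fell and Gna13 (0.70, SE 0.11, adjusted p = 3.17e-06) rose in PL against PP. In LL against PL Gna11 was higher by 0.59 (SE 0.16, adjusted p = 0.0416), a call lost in 12 of 18 alternatives, and Gna13 lower (-0.45, SE 0.11, adjusted p = 0.00999), lost in 3 of 18. In LBL against PBL Gna11 was higher by 0.95 (SE 0.16, adjusted p = 0.000112) and Gna13 lower (-0.38, SE 0.10, adjusted p = 0.0169), the latter lost without LBL replicate 2. The receptor kinase gene Grk3 was also called lower there (-0.84, SE 0.25, adjusted p = 0.0377), a call lost in 10 of 20 alternatives.

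Over the 5 lists together 7 genes were called in LL against PL and 11 in LBL against PBL, of 51 tested, where 2.78% and 6.74% of all genes were called. Gpr132 and Gpr18 are in both counts and Gpbar1 in the second, although groups given LPS kept them in the fit. With the sorter in the fit 0 list genes were called in LL against PL, and without PL replicate 1 there were 3. The same term left 0 of 15 calls in PBL against PL, groups that also differ in sorter, and 16 calls in place of 31 in PBL against PBP. List medians were between -0.41 and 0.0521 in LL against PL and between -1.26 and 0.00646 in LBL against PBL.

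**Figure D5:**
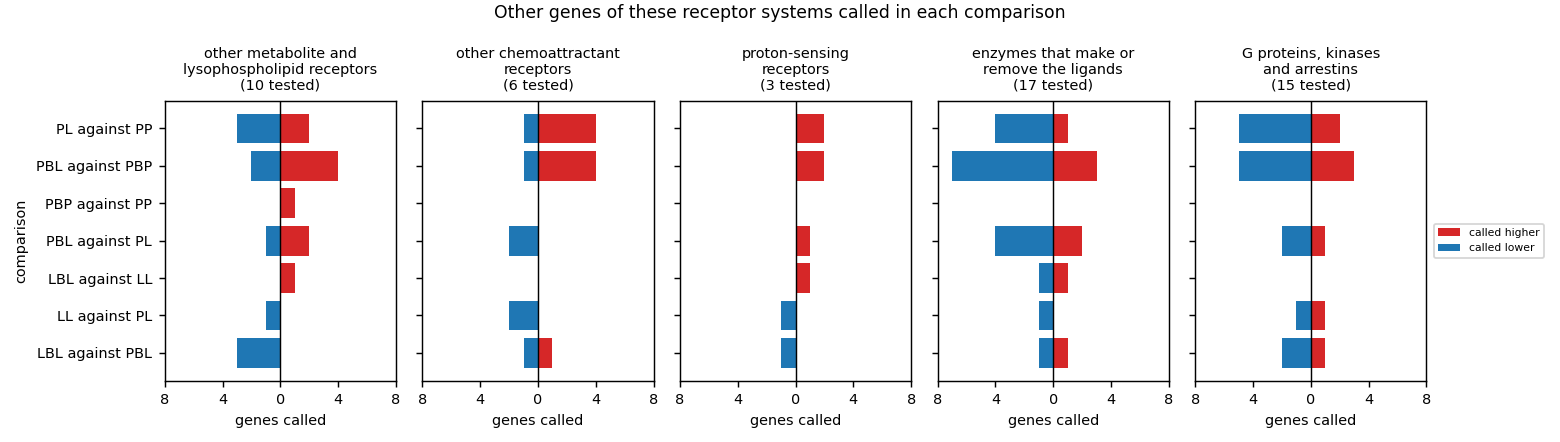
Number of genes called higher (red, to the right) and lower (blue, to the left) in each of 5 gene lists for 7 comparisons, by edgeR at an adjusted p under 0.05. Chemoattractant and proton-sensing receptors are called mostly higher with a first LPS (4 of 6 and 2 of 3), where 14.2% of all genes were in PL against PP and 21.5% in PBL against PBP. The calls after an earlier LPS are mostly lower, as they are over all genes (2.03% lower and 0.752% higher in LL against PL, 4% and 2.74% in LBL against PBL).

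Pattern likeness was measured as Pearson's r of log2 CPM over the 29 libraries, which share the group structure, and is given as a description. The 3 genes most like Hcar2 were Cd244a (0.983), Pvr (0.978) and the proton receptor Gpr65 (0.978). Those most like Gpr84 were its antisense gene Gm49482, Cd83 (0.993) and the chemokine gene Cxcl10 (0.988). Gpr183 was most like Thrsp (0.969), Slc46a3 (0.966) and Cd180 (0.965), and Lpar6 most like Rb1, Slc46a3 (0.964) and Mylip (0.961). Lpar5 followed A230005M16Rik (0.946), Tpra1 (0.944) and Fgd2 (0.943). No gene followed Ptafr as closely: Calhm6 (0.883), Neurl3 (0.864) and Bcor (0.863) came nearest. For Fpr1 the nearest were Wdr26 (0.887), Map3k6 (0.886) and Saa3 (0.884), and for Fpr2 Tnfaip2 (0.899), Ctdnep1 (0.879) and Ccr7 (0.875).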

How the data were processed

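Polyadenylated RNA of sorted microglia was sequenced on a NovaSeq6000 after low-input library preparation, per the labels' protocols. The deposited table holds whole-number read counts, unnormalized as the authors deposited it. The submitters' processing notes name FastQC 0.11.9, cutadapt 2.10, TopHat, SAMtools 1.10, Picard 2.13.2, HTSeq 0.11.0 and the build GRCm39, without roles. Which gene annotation was used, and whether counting used strand, is not given in the sources used here. The deposited sample table adds for every library an RNA quality number (a score on which intact RNA is high), the RNA concentration and the day of sorting.

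The 9 receptors and the 5 gene lists were chosen with earlier results of these data known. That choice bears on the p-values of list genes in the LPS and depletion comparisons. Counts were fitted with edgeR 4.0.16 (R 4.3.3): filterByExpr at its defaults, TMM scaling, and a robust quasi-likelihood model of all 29 libraries with 1 coefficient per group (23 residual degrees of freedom; common biological coefficient of variation 0.26). P-values are two-sided and Benjamini-Hochberg adjusted over the 16632 genes tested, with calls at 0.05. SE is the log2 fold change divided by the square root of the F statistic. From each list and comparison, names were taken from the 4 called genes with the largest absolute log2 fold change, plus Ch25h, Cyp7b1 and Hsd3b7. 1 gene of the lists is not reported here. Log2 CPM for correlations and within-day differences used a prior count of 2. Ratios of summed counts carry exact 95% counting intervals, which cover counting error only.

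Alternatives were DESeq2 1.42.0 and limma 3.58.1 voom, DESeq2 size factors, no filter, only the groups compared, sorter or RNA quality number as a term, a replicate block, and leaving out each replicate. The fit was tested on simulated data. No 2 libraries of a group agreed within sampling noise: over 56 pairs, chi-square divided by its degrees of freedom was 5.47 to 32.45. The labels do not say that samples came from separate animals, so the p-values reflect spread among samples that may be technical. Deviations of same-numbered replicates from their group means had r from -0.311 to 0.29. In PBP and PP 2 of 5 pairs were over 0.1, and in the other comparisons none was. Gene overlaps were read from GENCODE M21, of another build, and no coordinates were taken from it.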

Additional observations from a re-analysis of the deposited data

Results flagged for a closer look

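There were 48 sets of values, 8 genes in each of 6 groups. In 9 of them a library lay farther from the rest of its group than Dixon's 95% limit allows on the log2 scale. The limit flags about 1 in 20 sets of normally distributed values. Sets with few reads are not of that kind: Fpr1 and Fpr2 in PBP each had 4 libraries at 0, so any other value is flagged. The 9 are therefore not compared with that rate. PL replicate 2 accounted for 3 of the 9 sets: Gpr84 at 1170 CPM against 2890 to 2990 CPM in the other PL libraries, Ptafr at 129 CPM against 314 to 375 CPM, and Fpr2 at 0.178 CPM against 2.49 to 3.24 CPM. Its RNA quality number was 8.9 and its total count 5806269, the lowest of PL.

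Fpr1 stood at 1.61 CPM in PP replicate 1 against 0 to 0.126 CPM in the other PP libraries, at 0.466 CPM in PBP replicate 5 against 0 in the others, and at 8.85 CPM in PBL replicate 4 against 2.31 to 3.06 CPM. Fpr2 was at 0.268 CPM, 3 reads, in PBP replicate 4 against 0 in the others. Hcar2 was at 778 CPM in LBL replicate 2 against 1070 to 1170 CPM. Lpar6 was at 193 CPM in LBL replicate 4 against 152 to 158 CPM.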

How the results depend on the processing

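The sorter as a term in the fit, which rests on PBP replicate 5, changed most. With it 0 receptors were called in LL against PL in place of 2, and the calls in the 5 lists went from 31 to 16 in PBL against PBP, from 15 to 0 in PBL against PL and from 7 to 0 in LL against PL. It turned the sign, without a call, of Lpar6 (0.23) and Gpr183 (0.11) in PBL against PL, of Fpr1 in LL against PP (-0.65), of Lpar6 (0.50), Fpr1 (-4.66), Fpr2 (1.27) and Gpr183 (0.22) in LL against PL, of Lpar6 (-0.20), Fpr1 (3.48) and Gpr183 (-0.15) in the difference between effects of earlier LPS, and of Hcar2 (0.0485), Fpr1 (-1.02) and Fpr2 (0.20) in the difference between first responses. The cause was not tested. With PL replicate 2 and PBP replicate 5 left out together, an alternative chosen after seeing the data, the difference between effects of earlier LPS was 0.075 for Hcar2 and 0.14 for Gpr84, and that between first responses -0.17 for Gpr84. Calls in the lists were 9 in place of 15 in PBL against PL with the RNA quality number in the fit, and 0 in place of 1 in PBP against PP with voom or with only the groups compared.

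Leaving out 1 replicate gave 0 to 1 receptors called in the difference between first responses (Lpar6 without PBP replicate 5), and 0 to 1 list genes in PBP against PP, 8 to 16 in PBL against PL, 2 to 4 (main 4) in LBL against LL and 3 to 8 in LL against PL. Signs turned within these ranges: Fpr1 -4.60 to 0.18 and Fpr2 0 to 2.63 in PBP against PP; Lpar6 -0.17 to 0.0542 in LL against PL; Hcar2 -0.18 to 0.0773 and Gpr84 -0.21 to 0.14 in the difference between effects of earlier LPS; Hcar2 -0.23 to 0.12, Gpr84 -0.11 to 0.24, Fpr1 -0.90 to 3.85 and Fpr2 -2.60 to 0.20 in the difference between first responses. Over 20 alternatives LBL against PBL stayed between -1.87 and -1.69 for Gpr84 and between -1.97 and -1.77 for Ptafr, each called throughout. The replicate block, tried although few same-numbered replicates deviated together, gave 2, 3, 0 and 0 receptors called, as without it, and -1.66 (adjusted p = 5.96e-06) for Gpr84 in LL against PL. Depth limits Fpr1, Fpr2 and Sucnr1.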
